A study of Mus musculus with 8 samples.

Results

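The genes described here are 42 mouse genes of the cell cycle and DNA replication, out of 42432 genes tested on the array. They were chosen by gene name, with earlier results of these data known. They are proliferation markers, cyclins and cyclin-dependent kinases, G1/S regulators, origin licensing factors, DNA synthesis enzymes, mitotic kinases, checkpoint proteins, centromere proteins and spindle motors. The array carried 66 probes for them, 51 matched through a RefSeq accession and 15 through the gene symbol, and all 42 genes passed the filter on low signal. RNA came from 8 samples of myeloid cells that had entered the mouse brain from transplanted bone marrow after an experimental stroke. The donor marrow carried the red fluorescent protein DsRed and was either wild-type (Psgl1+/+, replicates 1 to 4) or lacked Selplg, the gene of the selectin-binding glycoprotein PSGL-1 (Psgl1-/-, replicates 5 to 8), while the recipients of both groups were wild-type mice. In both groups the stroke was a 30 min occlusion of the middle cerebral artery (MCAo), and ischemic brain tissue was taken 7 days after reperfusion. Cells were sorted as PI- DsRed+ CD11b+ Ly6G- CD3- CD45hi, which are live donor-derived myeloid cells without a neutrophil or a T cell surface marker. The sources used here give neither the age of the animals, their number per sample nor the promoter of DsRed, so that the p-values below cover the spread among these samples alone, part of which may be technical.

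A cell that divides passes from growth (G1) through DNA synthesis (S) to mitosis (M). Licensing factors load the MCM helicase onto replication origins in G1, cyclin-dependent kinases with their cyclins start S phase and mitosis, and the spindle with its motors separates the chromosomes. Many genes of S phase are transcribed under E2F factors and many genes of mitosis through CHR and CCAAT elements in their promoters. Monocytes that enter an injured tissue derive from dividing precursors in the bone marrow, while most mature macrophages divide little.

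The promoters of 5 members are shown because 4 of these genes (Cenpa, Ccnb2, Rrm2 and Bub1) are among the 6 with the smallest unadjusted p and Cdk1 had the largest positive difference among the cyclins and kinases. Each sequence runs 5′ to 3′ on the strand of the gene, from 120 bases before to 25 bases after the transcription start in RefSeq (assembly GRCm38.p6), and capitals mark the letters TTTGAA or TTCGAA (the core of a CHR element), CCAAT and the E2F letters TTTCCCGC, TTTCGCGC, TTTGCCGC or TTTGGCGC, each on either strand.
Cenpa: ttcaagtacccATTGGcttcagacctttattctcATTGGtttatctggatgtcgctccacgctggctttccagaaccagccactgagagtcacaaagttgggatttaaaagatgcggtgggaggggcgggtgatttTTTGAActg
Ccnb2: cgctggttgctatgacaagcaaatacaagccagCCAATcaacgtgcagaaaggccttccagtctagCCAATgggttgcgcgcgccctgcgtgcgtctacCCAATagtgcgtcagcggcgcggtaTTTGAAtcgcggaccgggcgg
Cdk1: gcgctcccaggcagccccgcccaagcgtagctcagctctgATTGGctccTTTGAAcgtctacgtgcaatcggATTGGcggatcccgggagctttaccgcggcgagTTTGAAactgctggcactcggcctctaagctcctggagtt
Rrm2: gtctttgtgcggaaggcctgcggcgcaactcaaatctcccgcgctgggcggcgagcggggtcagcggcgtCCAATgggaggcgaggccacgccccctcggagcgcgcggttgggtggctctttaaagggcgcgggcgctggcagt
Bub1: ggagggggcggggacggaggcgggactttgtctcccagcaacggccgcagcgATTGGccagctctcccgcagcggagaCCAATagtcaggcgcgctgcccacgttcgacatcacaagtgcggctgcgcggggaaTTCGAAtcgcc
These windows lie at chr5:30666766-30666910 on the plus strand for Cenpa, chr9:70421530-70421674 on the minus strand for Ccnb2 and chr10:69352888-69353032 on the minus strand for Cdk1. That of Rrm2 lies at chr12:24708134-24708278 on the plus strand and that of Bub1 at chr2:127831835-127831979 on the minus strand. The 3 G2/M genes that were higher in the knockout arrays on average (Cenpa, Ccnb2 and Cdk1) and Bub1, whose brightest probe was lower, all had CCAAT letters and a CHR core in this window; the direction of Bub1 depended on the probe, as given below.

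RefSeq promoters of 300 bases around the transcription start were matched for 34 of the 42 members, and a gene with several of them was counted where any held the letters. The letters TTTGAA were present in 15 of them (44.1%, against 20.2% of 27025 genes), and TTCGAA in 4 (11.8% against 1.80%). CCAAT was present in 25 (73.5% against 41.1%), and CCAAT together with either CHR core in 16 (47.1% against 8.61%). The E2F letters were present in 8 (23.5% against 2.61%), which were Cdc6, Cdk1, Cdk2, Cdt1, Mcm3, Mcm5, Mcm6 and Mcm7. The motifs could overlap each other, and a match is only a match of letters. Of the 6 spindle genes described below, Kif11, Kif23, Kif2c and Prc1 had a CHR core.

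The 66 probes were 45 to 57 bases long, and 5 of them are shown as examples of what was hybridised: the brightest probes of Cdk1, Tk1 and Tyms, a further probe of Tk1, and the dimmer of the Kif2c probes.
Cdk1 (NM_007659.3): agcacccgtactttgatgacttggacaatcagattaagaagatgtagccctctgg
Kif2c (NM_001290662): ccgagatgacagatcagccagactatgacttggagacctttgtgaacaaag
Tk1 (ENSMUST00000153298): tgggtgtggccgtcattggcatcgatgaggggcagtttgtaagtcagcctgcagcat
Tk1 (NM_009387.2): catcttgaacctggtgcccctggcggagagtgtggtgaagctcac
Tyms (NM_021288.4): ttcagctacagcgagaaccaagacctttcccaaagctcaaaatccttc
Here no letter is in capitals, since no part of a probe is singled out. The file places the Kif2c probe at chr4:116832904-116832963 and the Tk1 probe of transcript ENSMUST00000153298 at chr11:117683390-117683449, both on the minus strand of build mm9. The other 3 carry no position in the file, and whether a probe lies in an exon or a UTR was not analysed here.

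Signals are given as log2 of the processed spot brightness after scaling every array to the same 75th percentile, so that 1 unit is a factor of 2. Each gene is represented by its brightest probe. Levels of different probes are not comparable with each other, since probes differ in how well they bind, whereas the level of 1 probe can be compared between arrays. Differences are knockout minus wild-type with their standard error (SE) from limma, n = 4 arrays per group, and p-values are adjusted by Benjamini-Hochberg over all 42432 genes. In a bulk sample, fewer cycling cells and less RNA of a gene per cell cannot be told apart.

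Between 76.1% and 88.2% of the gene spots of an array were well above background, with 76.1% to 81.6% on the 4 arrays of slide row 2 (replicates 1, 3, 5 and 7) and 86.2% to 88.2% on the 4 of slide row 1 (replicates 2, 4, 6 and 8). Each row held 2 arrays of each group, whereas the slide columns were not shared, so that column and genotype cannot be told apart. Selplg did not separate the groups: its log2 signal ranged from 12.68 to 15.74 on the wild-type arrays and from 12.88 to 13.45 on the knockout arrays (adjusted p = 0.684, limma), and the sources used here do not say whether its probe lies in the deleted part. All 13 macrophage and monocyte markers were well above background on all 8 arrays, as were all 8 microglia markers and all 5 neuron markers. The summed levels of 11 of the 13 cell type lists overlapped between the groups, including macrophages (log2 of the sum 15.99 to 17.49 wild-type, 16.17 to 17.67 knockout) and neutrophils (10.10 to 12.76 and 12.11 to 13.57). Of the 8 neutrophil markers, 5 had a difference above 0 (31% of all genes did), and only S100a9 was without overlap. It was higher in the knockout samples (5.71, 9.04, 11.42 and 4.49 against 12.54, 11.61, 12.97 and 12.70). Its difference was 4.79 (adjusted p = 0.458, limma), and 0.648% of all genes were higher without overlap. Ly6g, S100a8, Retnlg and Mmp8 overlapped (differences 2.40, 0.59, 0.61 and 0.40), and Cxcr2, Camp and Ltf had differences below 0 (-0.30, -0.69 and -0.31). The Ly6g probe was well above background on 3 wild-type and 4 knockout arrays. Cells with surface Ly6G had been sorted out, and whether neutrophils remained was not tested. The B cell sum (5 markers, 15.04 to 15.28 wild-type and 14.43 to 14.87 knockout) and the neuron sum (5 markers, 17.10 to 17.73 and 16.57 to 16.93) did not overlap. Both were lower in the knockout samples, the direction in which 10.8% of all genes did not overlap. The brightest marker of each list, which weighs most in its sum, had a difference of -0.62 (Cd79a) or -0.57 (Snap25). The median difference of all genes was -0.33. The part of these markers in the results below was not tested.

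Over all 42 members, no gene passed the adjusted threshold of 0.05 (0 of 42; 0.00236% of all genes tested did, which is 1 gene, Slc39a6). The lowest adjusted p was 0.458, shared by the members with the clearest differences. At an unadjusted limma p under 0.05, 6 members differed, against 10.8% of all genes in either direction. Cenpa, Ccnb2 and Rrm2 were higher in the knockout arrays (1.62% of all genes were), and Kif23, Bub1 and Kif2c were lower (9.21% of all genes were). The groups did not overlap for Cenpa and Rrm2, both higher in the knockout arrays (0.648% of all genes), and for Bub1, lower (10.8% of all genes).

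In the scaling used here, the members leaned the other way from the array as a whole, but this depended on the arrays used. The difference was above 0 for 24 of the 42 members (57.1%) against 31% of all genes, and the median difference was 0.29 against -0.33 over all genes. The scaling moved both medians: cyclic loess moved the median of all genes to -0.01 and quantile normalization moved it to -0.17, and the median of the members became 0.57 and 0.42. Other choices brought the median of the members down to 0.03, both with probes above background on all 8 arrays (19 of 36 members above 0) and with the mean over all probes (22 of 42). The median of all genes was -0.33 and -0.32 under these choices. A difference of a member is therefore best read against -0.33, the median of all genes in the scaling used here. The median of the members was below 0 without knockout replicate 7 (-0.10, 20 of 42 above 0), where that of all genes was -0.29. Within slide row 1 the median of the members was -0.08, with 21 of 42 above 0, and that of all genes was -0.40. No test of the members as a set was made. The split of the members with an unadjusted p under 0.05 also moved, from 3 higher and 3 lower to 3 and 1 by quantile normalization or the array median and to 4 and 0 by cyclic loess. With slide row as a block it was 3 and 1, as Bub1 and Kif2c no longer had an unadjusted limma p under 0.05. Over all genes tested the count at that p fell as well, from 4594 to 2788 (quantile normalization), 2732 (array median), 2040 (cyclic loess) and 3860 (slide row as a block).

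**Figure D1:**
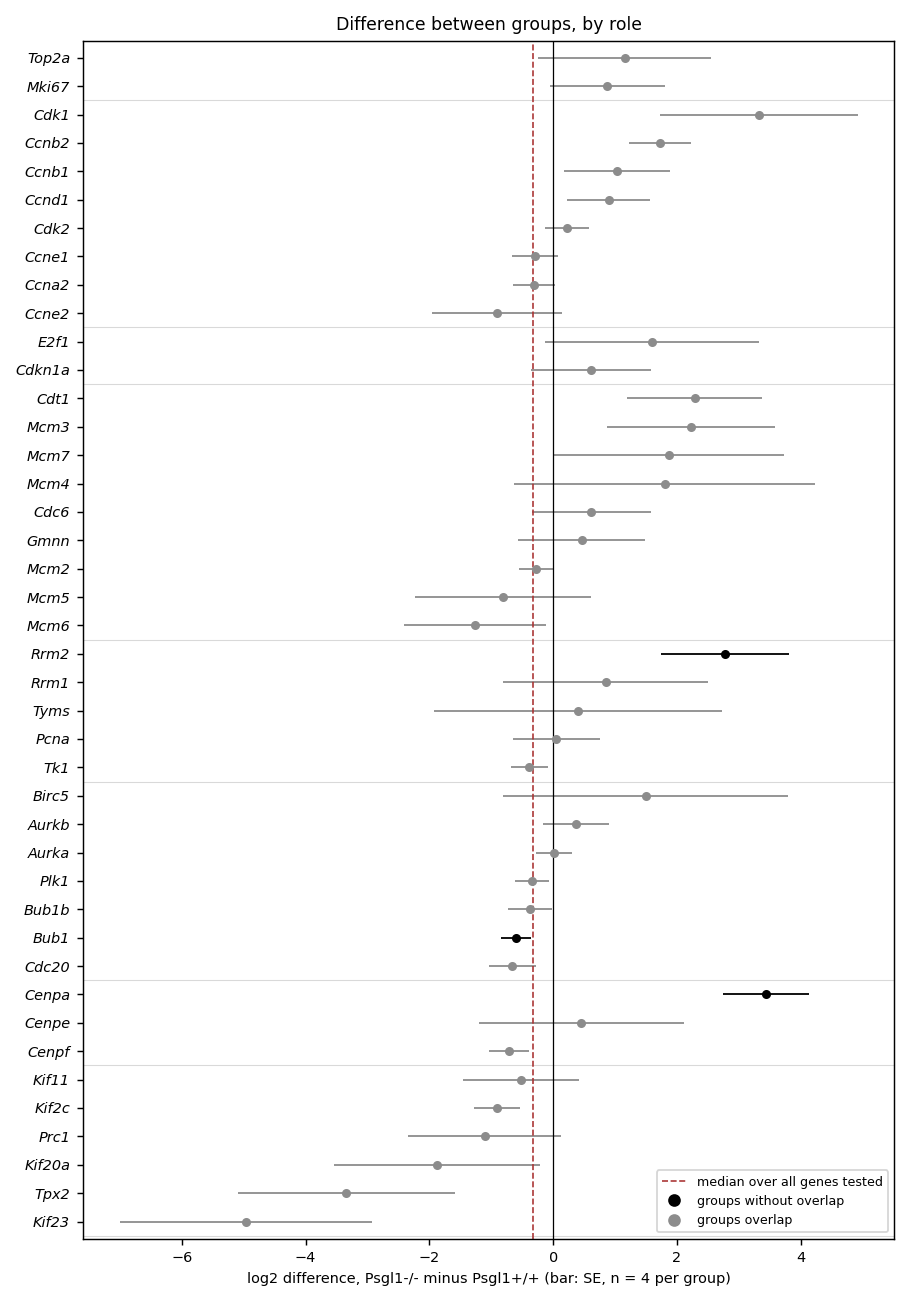
Difference of each of the 42 members on the log2 scale, knockout minus wild-type, grouped by role, with bars of 1 SE (n = 4 arrays per group). Black points are Rrm2, Bub1 and Cenpa, whose groups did not overlap, and the dashed line is the median of all genes (-0.33); the 6 spindle genes at the bottom all lie below 0.

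The members varied widely between arrays of the same group. Their median range over the 8 arrays was 4.30 log2 units, against 2.34 for all genes and 2.46 for genes whose probe was named by a RefSeq accession. The range was over 4 units for 22 members (52.4%, against 28.5% of all genes and 31.2% of those named by accession), from 2 to 4 for 8 members and under 2 for 12. The members with the narrowest ranges were Ccna2, Ccne1, Cdk2, Mcm2, Tk1, Plk1, Aurka, Aurkb, Bub1, Bub1b, Cdc20 and Cenpf. Among other genes of the cell cycle, 70 of 128 (54.7%) ranged over 4 units, a share close to that of the members.

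**Figure D2:**
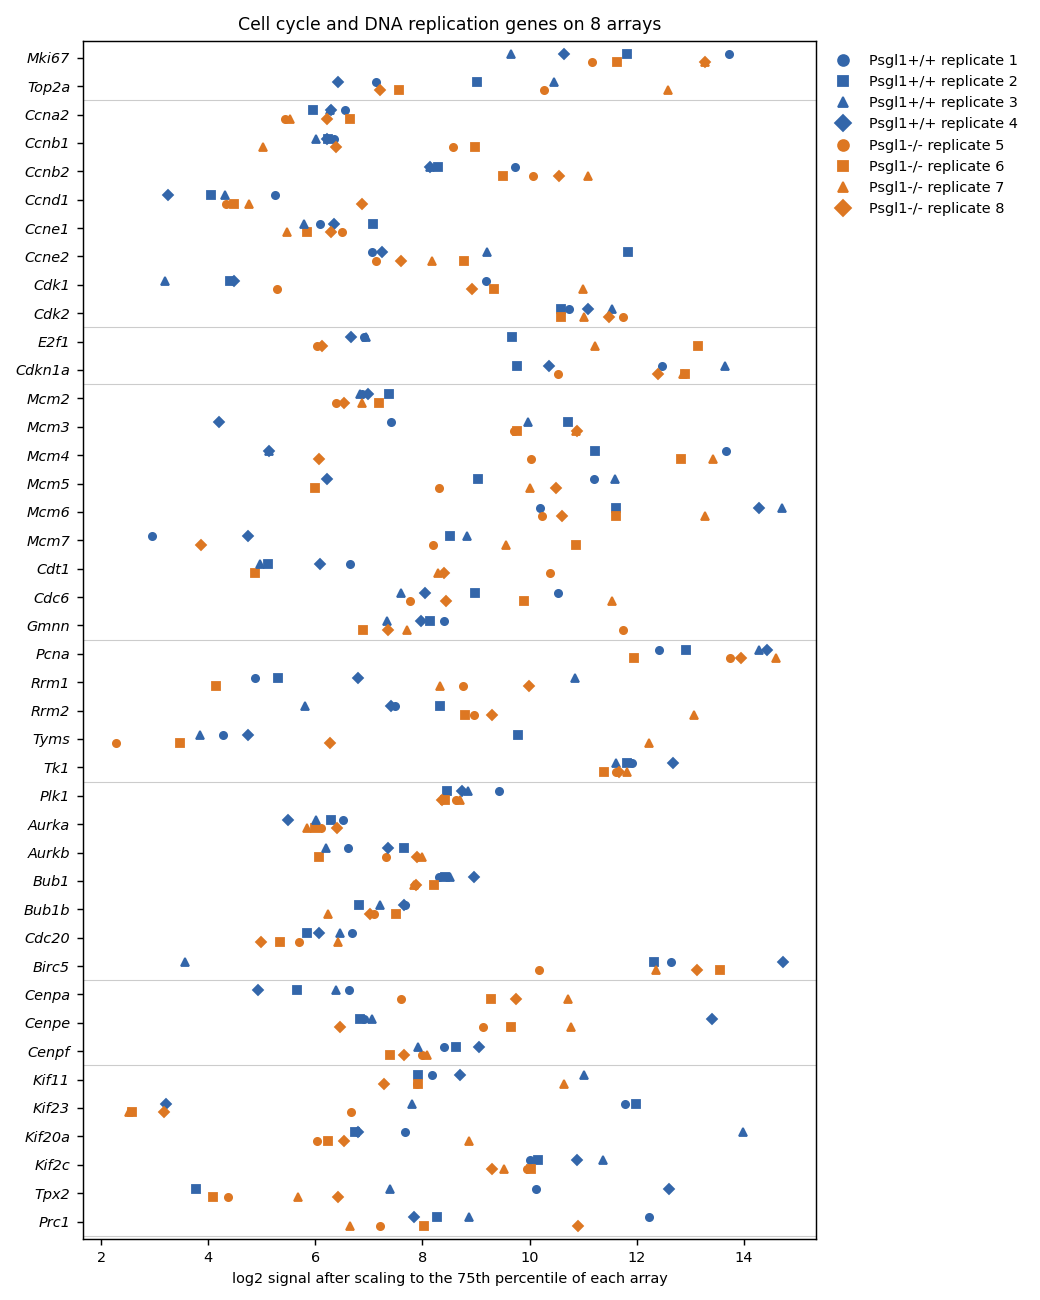
log2 signal of each of the 42 members on each array after scaling, with wild-type arrays in blue, knockout arrays in orange and 1 marker shape per replicate. The range over the 8 arrays runs from 0.99 for Mcm2 to 11.16 for Birc5, and the groups are apart for Cenpa, Rrm2 and Bub1.

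Values of each gene are given below in the order of replicates 1 to 4 for the wild-type samples and 5 to 8 for the knockout samples.

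The proliferation markers did not separate the groups. Mki67 encodes Ki-67, a protein of the surface of mitotic chromosomes that is used to count dividing cells. Its level was 13.72, 11.82, 9.65 and 10.65 in the wild-type samples against 11.16, 11.63, 13.27 and 13.27 in the knockout samples. The highest value was thus on a wild-type array, and the difference of 0.87 (SE 0.94, adjusted p = 0.699) was smaller than the spread between arrays. Top2a, the topoisomerase that untangles chromosomes before they part, had levels of 7.13, 9.02, 10.46 and 6.42 in the wild-type samples against 10.27, 7.57, 12.59 and 7.21 in the knockout samples. Its difference was 1.16 (SE 1.39, adjusted p = 0.736). A further Top2a probe (ENSMUST00000139730, chr11:98877908-98877967 in mm9) gave the opposite sign, -3.35, with 13.86 on wild-type replicate 1 and 5.31 to 6.26 on the knockout arrays, and another (ENSMUST00000129777) was not well above background on any array.

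Of the 8 cyclins and cyclin-dependent kinases, 5 had a difference above 0 and 3 below, and Ccnb2 was the member of this role with an unadjusted p under 0.05. Ccnb2 encodes cyclin B2, a partner of CDK1 at the entry into mitosis. Its level was 9.72, 8.29, 8.14 and 8.15 in the wild-type samples against 10.07, 9.496, 11.09 and 10.54 in the knockout samples. Of the knockout arrays, 3 lay above every wild-type array, and replicate 6 lay just under wild-type replicate 1. The knockout arrays were 3.31-fold higher on average (log2 difference 1.72, SE 0.49, adjusted p = 0.458). The difference was 1.80 within slide row 1 and 1.65 within row 2, and 1.46 to 2.11 when any 1 array was left out.

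Cdk1, the kinase that drives mitosis, had the largest difference of this role, 3.32 (SE 1.60, adjusted p = 0.465). Its level was 9.19, 4.40, 3.20 and 4.48 in the wild-type samples against 5.28, 9.33, 11.00 and 8.92 in the knockout samples. In each group a single array went with the other group: wild-type replicate 1 was high and knockout replicate 5 was low. The probe, shown above, was not well above background on 1 wild-type array. Ccnb1, cyclin B1, was at 6.34, 6.24, 6.02 and 6.23 on the wild-type arrays, a spread of 0.14 (SD), and at 8.58, 8.98, 5.02 and 6.38 on the knockout arrays (difference 1.03, SE 0.85, adjusted p = 0.61). Replicates 5 and 6 were high and replicate 7 was the lowest of all 8, and the other Ccnb1 probe (BC011478, chr13:101548688-101548747 in mm9) was well above background on 2 arrays, both knockout, and brightest there on replicates 5 and 6 as well (5.63 and 7.18).

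Ccna2 encodes cyclin A2, which acts in S phase and G2. It kept to 5.95 to 6.55 on the wild-type arrays and 5.43 to 6.64 on the knockout arrays, with a difference of -0.31 (SE 0.34, adjusted p = 0.703) that turned to 0.07 with cyclic loess. Ccnd1, cyclin D1 of G1, was well above background on 1 wild-type and 3 knockout arrays, at 5.24, 4.05, 4.32 and 3.25 and at 4.33, 4.47, 4.76 and 6.88 (difference 0.90, SE 0.67, adjusted p = 0.574). Knockout replicate 8 stood above the other arrays, and the difference was -0.24 within slide row 2. Cdk2, the S phase kinase, ranged over 1.17 units on all 8 arrays. The cyclins E, which bind CDK2 at the start of S phase, had differences of -0.30 for Ccne1 (0.08 with cyclic loess) and -0.91 for Ccne2, whose other probe gave -3.40, with wild-type replicates 2 and 3 high on both probes.

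Neither G1/S regulator separated the groups. E2f1, a transcription factor that switches on S phase genes, had levels of 6.91, 9.67, 6.94 and 6.66 in the wild-type samples against 6.04, 13.15, 11.21 and 6.13 in the knockout samples (difference 1.59, SE 1.73, adjusted p = 0.704). Knockout replicates 6 and 7 were high while replicates 5 and 8 were the lowest of all 8. Cdkn1a encodes p21, an inhibitor of cyclin-dependent kinases that is induced by p53. It was at 12.46, 9.77, 13.65 and 10.37 in the wild-type samples against 10.52, 12.90, 12.86 and 12.40 in the knockout samples (difference 0.61, SE 0.96, adjusted p = 0.80). The sign differed between slide rows, 2.58 in row 1 and -1.37 in row 2, and the other Cdkn1a probe (ENSMUST00000122348, chr17:29235299-29235358 in mm9) gave -0.44.

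Of the 9 origin licensing genes, 6 had a difference above 0 and 3 below, and none had an unadjusted p under 0.05. Cdt1 loads the MCM helicase onto origins. It was at 6.64, 5.11, 4.97 and 6.09 in the wild-type samples against 10.38, 4.88, 8.29 and 8.41 in the knockout samples (difference 2.29, SE 1.09, adjusted p = 0.464), with 3 knockout arrays above every wild-type array and replicate 6 below them all. Gmnn encodes geminin, which holds CDT1 back after origins have fired. Its levels were 8.41, 8.14, 7.33 and 7.98 against 11.74, 6.88, 7.71 and 7.35, so that replicate 5 alone was high, and it was the array on which Cdt1 was highest too (difference 0.46, SE 1.03, adjusted p = 0.863). Without replicate 5 the difference of Gmnn was -0.65, and its other probe (AK131677) read -0.61. Cdc6, the partner of CDT1 in loading, had 10.54, 8.99, 7.59 and 8.05 against 7.76, 9.90, 11.53 and 8.44 (difference 0.62, SE 0.96, adjusted p = 0.796).

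The subunits of the MCM helicase, which work as 1 complex, did not share a direction: Mcm3, Mcm4 and Mcm7 had a difference above 0 and Mcm2 (until cyclic loess), Mcm5 and Mcm6 below. Mcm2 kept within 0.99 units over all 8 arrays, 6.84 to 7.37 wild-type and 6.39 to 7.18 knockout (difference -0.27, SE 0.28, adjusted p = 0.682; 0.06 with cyclic loess). Mcm5 had 11.20, 9.05, 11.60 and 6.22 against 8.32, 5.999, 10.01 and 10.49 (difference -0.81, SE 1.43, adjusted p = 0.821). Mcm4 swung further, with 13.67, 11.22, 5.14 and 5.13 in the wild-type samples against 10.03, 12.83, 13.43 and 6.06 in the knockout samples. The subunits thus had different arrays at the top: wild-type replicate 1 for Mcm4, wild-type replicate 3 for Mcm5 and Mcm6, and knockout replicate 6 for Mcm7. The differences of Mcm3, Mcm4 and Mcm7 were 2.22, 1.80 and 1.86 and that of Mcm6 was -1.26, none larger than 2 SE. For Mcm3 a further probe (NM_008563.2) kept to 7.99 to 9.93 with a difference of -0.19.

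Among the 5 genes of DNA synthesis and nucleotide supply, Rrm2 was higher in the knockout arrays and the other four did not separate the groups. Rrm2 encodes the small subunit of ribonucleotide reductase, the enzyme that makes deoxynucleotides, and is made in S phase. Its level was 7.49, 8.32, 5.81 and 7.42 in the wild-type samples against 8.97, 8.80, 13.07 and 9.30 in the knockout samples. All knockout samples exceeded all wild-type samples, the closest pair being 8.80 against 8.32, and replicate 7 stood far above the rest. The knockout arrays were 6.84-fold higher on average (log2 difference 2.77, SE 1.03, adjusted p = 0.458). Without replicate 7 the difference was 1.76, and it was 1.18 within slide row 1 and 4.37 within row 2, the row of replicate 7.

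Rrm1, the large subunit of the same enzyme, was at 4.88, 5.30, 10.84 and 6.80 in the wild-type samples against 8.75, 4.14, 8.33 and 9.99 in the knockout samples, and its difference was 0.85. The groups overlapped, and Rrm1 was highest on wild-type replicate 3, the array on which Rrm2 was lowest. Tyms, which makes thymidylate, was at 4.28, 9.79, 3.85 and 4.74 and at 2.28, 3.46, 12.23 and 6.28 (difference 0.40, SE 2.33, adjusted p = 0.951). Its probe, shown above, was well above background on 2 wild-type and 3 knockout arrays, and the other Tyms probe (ENSMUST00000154751, chr5:30396463-30396522 in mm9) was high on wild-type replicate 2 (10.96) but not on knockout replicate 7 (3.70).

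Pcna, the sliding clamp of the DNA polymerases, was among the members well above background on every array, at 12.42 to 14.43 wild-type and 11.95 to 14.61 knockout (difference 0.05, SE 0.70, adjusted p = 0.98). Tk1, the thymidine kinase that salvages thymidine in S phase, was read by 6 probes and was the most evenly measured gene of this role. Its brightest probe, shown above, was at 11.92, 11.82, 11.62 and 12.68 in the wild-type samples against 11.61, 11.39, 11.82 and 11.66 in the knockout samples (difference -0.39, SE 0.30, adjusted p = 0.582). The 6 probes gave differences from -0.50 to 0.01, close to the median of all genes, and none had an unadjusted limma p under 0.05.

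The 7 mitotic kinases, checkpoint and anaphase genes were the steadiest role, with a median range over the 8 arrays of 1.42 units. Bub1, a kinase of the spindle checkpoint at the kinetochore, was lower in the knockout arrays by a small amount. Its level was 8.31, 8.41, 8.52 and 8.97 in the wild-type samples against 7.87, 8.22, 7.84 and 7.87 in the knockout samples, without overlap, the closest pair being 8.31 against 8.22. The wild-type arrays were 1.52-fold higher (log2 difference -0.60, SE 0.25, adjusted p = 0.458), beside a median of -0.33 over all genes. With cyclic loess the difference was -0.33 while the median of all genes was -0.01.

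The other Bub1 probes that could be tested did not share this direction. The probe of ENSMUST00000138624 (chr2:127630730-127630789 in mm9) was at 5.76, 6.67, 6.18 and 5.001 in the wild-type samples against 6.34, 8.38, 9.29 and 8.38 in the knockout samples, a difference of 2.19 (SE 0.67, adjusted p = 0.48 over all probes, limma). That of XM_006498620.1 gave 3.57 (SE 1.57), with knockout replicates 5, 7 and 8 high. That of NM_009772.2 was well above background on 1 array per group and was not tested, and its means differed by -0.16. With the mean over all probes the difference of Bub1 was 1.25, so its direction depended on the probe.

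Plk1, the polo-like kinase of mitotic entry, kept to 8.46 to 9.43 wild-type and 8.37 to 8.70 knockout (difference -0.34, SE 0.28, adjusted p = 0.603). Aurkb, the kinase of the chromosomal passenger complex, was at 6.19 to 7.65 and at 6.06 to 7.99 (difference 0.36, SE 0.53, adjusted p = 0.783), and Aurka, the kinase of the spindle poles, had a difference of 0.01. Bub1b encodes the checkpoint protein BubR1. It was at 6.82 to 7.67 on the wild-type arrays and 6.24 to 7.50 on the knockout arrays (difference -0.37, SE 0.35, adjusted p = 0.662). Cdc20, which activates the anaphase-promoting complex, had a difference of -0.66 and groups that overlapped.

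Birc5 stood apart from the others of this role. It encodes survivin, a member of the chromosomal passenger complex beside AURKB. Its level was 12.63, 12.33, 3.57 and 14.73 in the wild-type samples against 10.17, 13.56, 12.36 and 13.12 in the knockout samples. Wild-type replicate 3 was the one array on which the probe was not well above background, and the range of 11.16 was the widest of the 42 members. The difference of 1.49 (SE 2.30, adjusted p = 0.794) was -0.93 without that array.

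Of the 3 centromere genes, Cenpa had the smallest unadjusted p of all 42 members. Cenpa encodes the histone H3 variant that marks the centromere and is loaded after mitosis. Its level was 6.62, 5.65, 6.38 and 4.94 in the wild-type samples against 7.59, 9.28, 10.72 and 9.75 in the knockout samples. The groups were fully apart, the closest pair being 7.59 against 6.62. The knockout arrays were 10.8-fold higher on average (log2 difference 3.44, SE 0.70, adjusted p = 0.458). The difference was 4.22 within slide row 1 and 2.65 within row 2, and 2.98 to 4.02 when any 1 array was left out, and the adjusted p stayed above the threshold in each case.

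The other Cenpa probe (NM_001302132, chr5:30974916-30975386 in mm9) was higher on only some of the knockout arrays. It was at 4.95, 4.28, 4.23 and 5.25 in the wild-type samples against 8.999, 3.67, 11.03 and 3.30 in the knockout samples (difference 2.07, SE 1.74). Replicates 5 and 7 were high, and replicates 6 and 8, on which the first probe read 9.28 and 9.75, were the lowest of all 8. The other centromere genes did not follow Cenpa: Cenpe, a motor at the kinetochore, had wild-type replicate 4 at 13.41 and the remaining arrays at 6.46 to 10.77 (difference 0.45), and Cenpf, a kinetochore protein of G2, had a difference of -0.72 (7.91 to 9.06 wild-type, 7.39 to 8.08 knockout).

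The 6 spindle motors and spindle proteins all had a difference below 0, from -0.52 for Kif11 to -4.96 for Kif23, with a median of -1.50 against -0.33 over all genes. All 6 stayed below 0 under the 5 other scalings, while Kif11 turned to 0.17 without wild-type replicate 3 and Prc1 to 1.40 within slide row 1. Kif20a came to -0.15 without wild-type replicate 3 and Prc1 to -0.14 without wild-type replicate 1. Outside the members, the spindle genes Kif15 and Tacc3, described below, had differences of 5.29 and 2.86. Of the 49 other G2/M and mitosis genes, 22 had a difference above 0 and 27 below. A difference below 0 was found for 29258 of the 42432 genes, and no test of the 6 together was made. Of them, Kif23 and Kif2c had an unadjusted p under 0.05.

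Kif23 encodes MKLP1, a motor of the central spindle that is needed to divide the cell body. Its level was 11.79, 11.996, 7.81 and 3.21 in the wild-type samples against 6.67, 2.58, 2.52 and 3.17 in the knockout samples. Wild-type replicates 1, 2 and 3 were above every knockout array, and wild-type replicate 4 was among the knockout values. The difference was -4.96 (SE 2.04, adjusted p = 0.458), with a probe well above background on 3 wild-type and 2 knockout arrays. Its size is uncertain, since it was -3.92 with a floor on low signals, -3.24 with normexp background correction and -2.32 with the mean over all probes. A dimmer Kif23 probe (AK076271, chr9:61770729-61770788 in mm9) also read lower, by less: 4.56 to 7.58 against 4.26 to 4.91 (difference -1.11, SE 0.62). A further one (AK013939) was not well above background on any array.

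Kif2c encodes MCAK, which takes apart microtubules at the centromere. Its level was 10.02, 10.15, 11.37 and 10.89 in the wild-type samples against 9.95, 10.03, 9.52 and 9.30 in the knockout samples. The groups touched, since knockout replicate 6 and wild-type replicate 1 had nearly the same value. The difference was -0.91 (SE 0.38, adjusted p = 0.458), -0.86 and -0.96 within slide rows 1 and 2, and the other Kif2c probe, whose sequence is shown above, gave -0.75 (SE 0.44). With slide row as a block, the unadjusted limma p of Kif2c was no longer under 0.05.

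Tpx2, which directs AURKA to the spindle, was at 10.11, 3.77, 7.40 and 12.60 in the wild-type samples against 4.36, 4.09, 5.67 and 6.41 in the knockout samples (difference -3.34, SE 1.76, adjusted p = 0.478). In the wild-type group 3 arrays were above every knockout array and replicate 2 was below them all. Prc1, which bundles microtubules between the separating chromosomes, had 12.22, 8.28, 8.87 and 7.84 against 7.20, 8.02, 6.65 and 10.90 (difference -1.11, SE 1.23, adjusted p = 0.711), with differences of -1.38, -0.29 and 0.25 from its other probes. Kif11, the motor that pushes spindle poles apart, was at 8.18, 7.92, 11.01 and 8.69 and at 7.90, 7.92, 10.64 and 7.27 (difference -0.52, SE 0.93, adjusted p = 0.826), highest on replicate 3 of the wild-type and replicate 7 of the knockout group. Kif20a, a motor of cytokinesis, had a difference of -1.88 that came with a single high array, wild-type replicate 3 at 13.99.

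The members were highest on average on knockout replicate 7. The mean of the 42 members was 9.34 on that array and 7.94 to 8.57 on the other seven, whereas its mean over all genes (8.07) was the lowest of the 8 arrays. It was the highest array for 9 members, Top2a, Ccnb2, Cdk1, Cdc6, Pcna, Rrm2, Tyms, Aurkb and Cenpa (21.4%, against 9.44% of all genes). Wild-type replicate 4 was the reverse, with the lowest mean of the members (7.94) and the highest mean over all genes (8.47). Among the macrophage and monocyte markers, Itgam, Csf1r, Adgre1, Mertk, Ccr2, Tyrobp and Spi1 were also highest on knockout replicate 7. Ptprc, Cd68, Lyz2 and Fcgr1 were highest on wild-type replicate 4, and Ly6c2 and Cd14 on knockout replicate 8. Whether these markers and the members rose together was not tested. Without replicate 7 the median difference of the members was -0.10 (-0.29 for all genes), and 20 of 42 were above 0 (47.6%, against 32.9% of all genes). Ccnb1, Ccnb2, Rrm2 and Cenpa, all higher, and Cdc20, lower, then had an unadjusted limma p under 0.05, as did 2786 of all 42432 genes. The median also fell without other arrays, to 0.02 without replicate 5, 0.04 without replicate 1, 0.05 without replicate 3 and 0.09 without replicate 2, with 21 to 23 of 42 above 0.

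**Figure D3:**
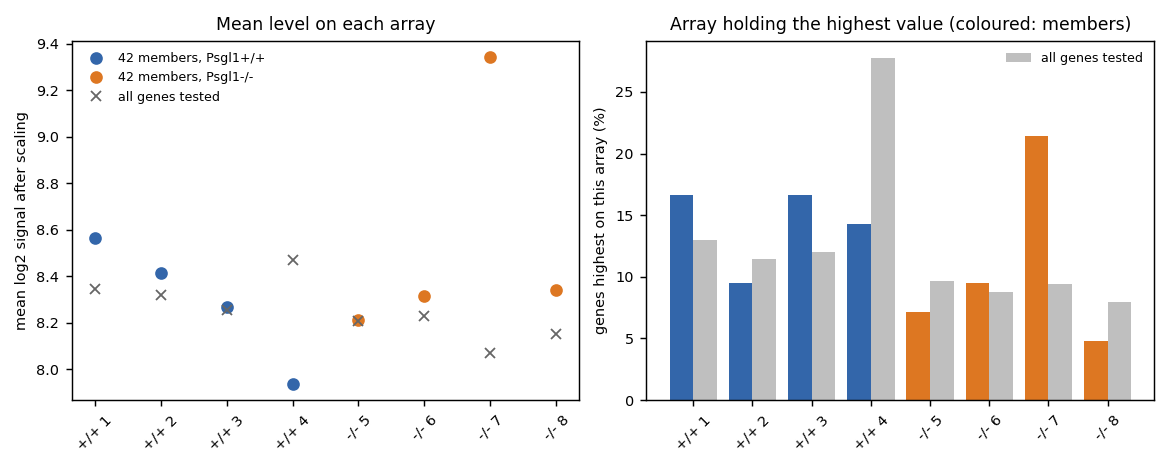
Left, mean log2 signal of the 42 members (coloured) and of all genes tested (crosses) on each array; right, the share of members (coloured) and of all genes (grey) that had their highest value on each array. Knockout replicate 7 has the highest mean of the members (9.34) and the lowest mean of all genes (8.07).

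Probes of the same gene often disagreed, as far as 14 members with several probes can show. Of their 24 probes other than the brightest, 19 could be tested, and 10 had the sign of the brightest probe while 9 had the opposite sign. Among the tested probes, those of Kif2c and Tk1 lay closest together and those of Top2a, Bub1 and Kif23 furthest apart. The other 28 members were read by 1 probe each. Of the 42 brightest probes, 36 were well above background on all 8 arrays, and those of Birc5, Kif23, Mcm7, Ccnd1, Tyms and Cdk1 were so on 4 to 7 arrays.

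**Figure D4:**
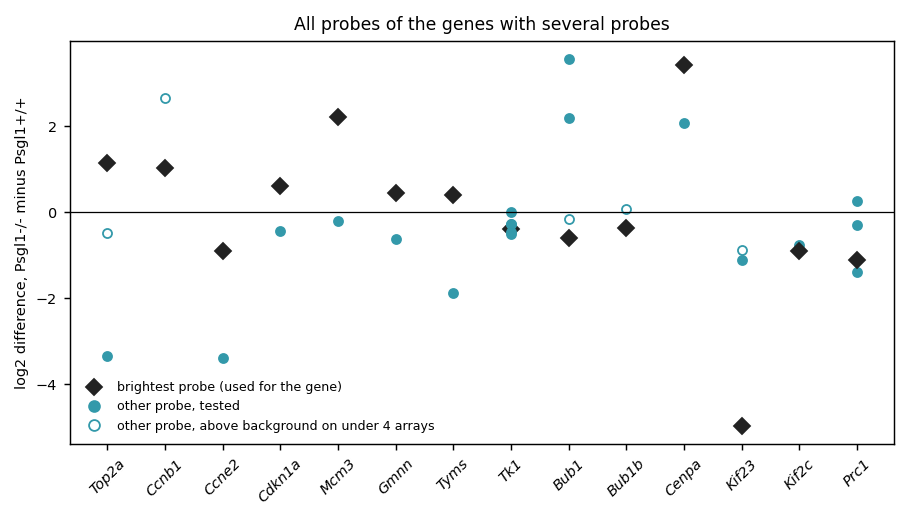
Difference of every probe of the 14 members with several probes on the log2 scale, knockout minus wild-type; black diamonds are the brightest probe of each gene, filled circles other probes that were tested and open circles probes well above background on fewer than 4 arrays. The 6 Tk1 probes lie together between -0.50 and 0.01, while those of Bub1 spread from -0.60 to 3.57.

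Other genes of the cell cycle were taken from 3 lists of 136 genes in all, of which 134 were on the array and 128 tested. None passed the adjusted threshold. At an unadjusted limma p under 0.05 there were 6 higher and 5 lower in the knockout arrays (1.62% and 9.21% of all genes were), and the difference was above 0 for 62 of 128 (48.4%, against 31% of all genes) with a median of -0.03. These counts are lower in their upward lean than the 57.1% of the members, and the gap between the lists was not tested.

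Among 26 cell cycle inhibitors and checkpoint genes, 3 were higher and 2 were lower at that p, against the 1.62% and 9.21% of all genes given above. Cdkn1b encodes p27, an inhibitor that keeps cells out of S phase. It was at 4.14, 4.995, 2.30 and 4.30 in the wild-type samples against 8.36, 7.39, 8.93 and 11.28 in the knockout samples, with no overlap (difference 5.06, SE 0.91, adjusted p = 0.458). Its probe was well above background on 2 of the 4 wild-type arrays, so the size of the difference is uncertain. Gadd45g, a stress-induced gene that can arrest cells, was higher by 2.92 (SE 0.76) with 1 knockout array just below 1 wild-type array, and Atm, a kinase of the DNA damage response, by 2.58 (SE 1.05) with knockout replicate 8 the lowest of all 8 and a probe well above background on 2 wild-type and 3 knockout arrays. Trp53, which encodes p53, was lower (difference -1.39, SE 0.56), and Atr, the kinase of replication stress, had a difference of -1.25 (SE 0.50) with no overlap. Cdkn1a, the inhibitor among the members, overlapped between the groups as given above.

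Of 49 other G2/M and mitosis genes, 3 were higher and 1 was lower at an unadjusted limma p under 0.05. Kif15, a spindle motor that can take over the work of KIF11, was at 5.41, 2.92, 4.06 and 3.35 in the wild-type samples against 12.46, 8.15, 5.53 and 10.75 in the knockout samples (difference 5.29, SE 1.44, adjusted p = 0.458), while its probe was well above background on 1 of the 4 wild-type arrays and on all 4 knockout arrays, so the size of that difference is uncertain. Tacc3, which stabilises spindle microtubules, had a difference of 2.86 (SE 1.20). Its knockout replicates 5 and 7 were high (12.70 and 12.42), and replicates 6 and 8 lay below wild-type replicate 2. Incenp, the scaffold of the chromosomal passenger complex, had a difference of 2.71 (SE 1.16), with knockout replicate 8 (6.46) inside the wild-type range of 5.19 to 9.07. Cenpi, a centromere protein, was lower (difference -0.94, SE 0.36). Of 53 other G1/S and replication genes, none was higher at that p and 2 were lower: Orc2, a subunit of the origin recognition complex (difference -0.81, SE 0.28), and Pola2, a subunit of the DNA polymerase that primes synthesis (difference -0.63, SE 0.26), both with no overlap (10.8% of all genes were lower without overlap).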

How the data were processed

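The authors measured RNA of 8 sorted samples on 8 single-colour Agilent arrays on 1 slide in 1 scan, per the file headers. The deposited spot brightness (processed signal) is a linear intensity that Feature Extraction (version 11.5.1.1) corrected for background within each array, per the file headers, and cRNA was made from random primers with a low-input kit, per the labels' protocols. The authors' deposited value table, intensities with identical sorted columns, served as an alternative.

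From these, control and outlier spots were left out, spots of a probe averaged, and log2 signals scaled to the 75th percentile of each array. A gene is read by its probe with the highest mean. Genes whose probe was well above background on 4 or more of the 8 arrays were tested with limma (version 3.58.1, R 4.3.3; lmFit and eBayes), two-sided, with Benjamini-Hochberg adjustment over 42432 genes. In simulated data with 100 genes changed by 2 log2 units, 18 were called, and of 100 changed by 4, 41, beside 3 false calls. The changed genes were drawn from all genes tested, whose median SD within groups was 0.76, against 1.50 for the members. These shares therefore do not hold for the members, for which none were worked out. The number of arrays limits the precision.

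Gene names came from RefSeq accessions or symbols (67.1% of 60273 probes) and promoters from RefSeq GRCm38.p6. Differences, SE and adjusted p are given for members whose groups did not overlap or whose unadjusted p was under 0.05 and for a fixed set of 26 members; of each other list, genes among the smallest unadjusted p in each direction are named. The members and lists were chosen with earlier results of these data known. The 21 alternatives tried were other scalings, background corrections, filters, probe rules, slide row as a block or within rows, and leaving out each array.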

Additional observations from a re-analysis of the deposited data

Results flagged for a closer look

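In 10 of the 84 groups of 4 arrays (42 members, 2 groups each), a single array stood far from the rest. For normally distributed values about 1 in 20 groups, or 4.2, would be flagged. The share of such groups over all genes was not counted, so the flags are not read as particular to the members. All 10 were high arrays, and they were spread over all 8 arrays, with 1 or 2 on each. In the wild-type group these were Ccnb2 on replicate 1 (9.72, against 8.14 to 8.29 on the other three), E2f1 on replicate 2 (9.67, against 6.66 to 6.94), Tyms on replicate 2 (9.79, against 3.85 to 4.74), Cenpe on replicate 4 (13.41, against 6.82 to 7.06) and Kif20a on replicate 3 (13.99, against 6.74 to 7.66). In the knockout group these were Ccnd1 on replicate 8 (6.88, against 4.33 to 4.76), Gmnn on replicate 5 (11.74, against 6.88 to 7.71), Rrm2 on replicate 7 (13.07, against 8.80 to 9.30), Bub1 on replicate 6 (8.22, against 7.84 to 7.87) and Kif23 on replicate 5 (6.67, against 2.52 to 3.17). For Rrm2 the remaining knockout arrays were still above every wild-type array, and for Bub1 the high array was the knockout array nearest to the wild-type values.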

How the results depend on the processing

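No member passed the adjusted threshold in limma under any of the 21 alternatives, and the lowest adjusted p of a member was 0.180, without knockout replicate 5. No other pathway gene passed it either. Ccnb2 and Cenpa kept an unadjusted p under 0.05 in every alternative except within slide row 2, and Rrm2 lost it without replicate 3, without replicate 4 and within either slide row. Of 876 values of members, 833 kept their sign and 43 turned, and 22 of the 42 members kept it throughout. The count of all genes called was 1 and became 4 with cyclic loess, 8 with a floor on low signals, 7 with probes above background on all 8 arrays, 6 with the mean over all probes, 9 with every probe on its own, 2 with slide row as a block, and 0 within either slide row. Leaving out 1 array gave 0 to 10 genes called, 3 to 6 members with an unadjusted limma p under 0.05, 20 to 25 members above 0 and a median difference of -0.10 to 0.31. Over all genes, 2678 to 4708 were then under that p, and the median was -0.39 to -0.26. The median of the members was -0.08 within slide row 1 and 0.15 within row 2, against -0.40 and -0.29 over all genes. The count of members with an unadjusted p under 0.05 was 3 when replicate 3, 4 or 8 was left out.

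Signs turned with cyclic loess for Ccna2 (0.069), Ccne1 (0.082) and Mcm2 (0.065), and with the mean over all probes for Top2a (-0.89), Gmnn (-0.078), Tyms (-0.74) and Bub1 (1.25). Within slide row 1 they turned for Top2a (-0.33), Ccna2 (0.30), Mcm5 (0.61), Gmnn (-0.94), Pcna (-0.73), Tyms (-2.39), Aurkb (-0.52), Bub1b (0.024), Birc5 (-0.19), Cenpe (-2.06) and Prc1 (1.40), and within row 2 for Ccnd1 (-0.24), Ccne1 (0.048), Cdkn1a (-1.37) and Aurka (-0.28). Leaving out 1 array turned 21 further values, over these ranges of the difference: Pcna -0.31 to 0.59, Tyms -1.66 to 1.77, Cenpe -0.13 to 2.07, Ccne2 -1.50 to 0.090, Aurka -0.18 to 0.16, Birc5 -0.93 to 2.79, Kif11 -1.25 to 0.17, Gmnn -0.65 to 0.97, Mcm5 -1.91 to 0.090 and Cdc6 -0.092 to 1.20. The cause was not tested. No paired analysis was possible because the groups share no replicate number. Signals near background limit Kif23, Ccnd1, Tyms, Mcm7, Birc5 and Cdk1 and, among the other pathway genes, Kif15, Cdkn1b and Atm.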
